A study of Mus musculus with 12 samples.

Results

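The genes described here are 10 mouse genes of interleukin-1 (IL-1) family signalling in the skin: the ligands Il1a, Il1b, Il18, Il33, Il36a and Il36g, the receptor antagonist Il1rn, the receptor Il1r1, and the chemokines Cxcl1 and Cxcl2. They were chosen by name, among 10751 gene symbols that stand in at least 1 of the deposited files. Of the 10, 8 were found in the files under these symbols. Il36g was found as Il1f9, its symbol in RefSeq, and Il36a, which RefSeq calls Il1f6, was found under neither symbol. Synonyms came from RefSeq's gene table (GRCm38.p6, the same assembly as mm10).

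The libraries came from primary keratinocytes of newborn mouse epidermis, grown on 3T3 fibroblast feeder cells treated with mitomycin C until passage 3, in medium with serum and low calcium. Cells labelled undifferentiated were taken at day 0, and cells labelled differentiated, after a rise in calcium, at day 4. For each day there were 3 input libraries of polyadenylated RNA and 3 libraries of RNA fragments enriched by an antibody to N6-methyladenosine (m6A), 12 in all. No strain, genotype or cell line is named, and whether the replicates are separate animals is not labelled. The files hold the authors' own comparisons and peak lists with no value per library, so depth, the overlap of single libraries and the level of a gene in each sample are unknown here, and p-values reflect no more than the variation among these libraries, possibly technical. In bulk RNA, fewer cells of a type and less RNA per cell cannot be told apart.

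IL-1 family cytokines act as alarm signals of the epidermis. Keratinocytes store IL-1α and IL-33 inside the cell and release them on damage. IL-1β and IL-18 are made as precursors that an inflammasome protease cuts, and IL-36 cytokines amplify the response of the skin. The ligands bind receptors made of a binding chain and an accessory chain, signal through Myd88, Irak kinases and Traf6 to NF-κB, and turn on neutrophil-attracting chemokines such as Cxcl1 and Cxcl2. The antagonist encoded by Il1rn occupies the IL-1 receptor without a signal. m6A is a methyl mark that is set within mRNA at a short sequence pattern, DRACH, and is known to influence how long an mRNA lasts and how well it is translated.

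The chemokine transcripts and Il36g carried their listed m6A peaks at the first transcribed base, so the RNA sequence below those peaks is shown first. Each line gives 30 bases from the RefSeq start table (GRCm38.p6, plus strand), read 5′ to 3′. Capitals mark AGACT, 1 form of the m6A pattern.
Cxcl1, bases 21 to 50 of the transcript, chr5:90891265-90891294: accagttccagcactccAGACTccagccac
Cxcl2, bases 1 to 30, chr5:90903899-90903928: gcttcctcgggcactccAGACTccagccac
Cxcl3, a neighbouring chemokine outside the 10 genes, bases 21 to 50, chr5:90786121-90786150: tcgcaccagctcccgcgctccAGACTccag
Il36g, bases 21 to 50, chr2:24186496-24186525: cccaagctgggatttggtcttctAGACTtt

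Cxcl1 and Cxcl2 shared a run of 20 bases here, gcactccAGACTccagccac, which no other start window of the table held. A core of 13 bases, ctccAGACTccag, was common to Cxcl1, Cxcl2 and Cxcl3, and stood in 4 of 32851 windows of the first 50 transcribed bases, the other being that of a predicted gene. Both runs were read from these same sequences, so their rarity elsewhere is no independent result. AGACT alone, read on the transcribed strand, stood in 5.14% of these windows (10.1% on both strands). The full DRACH pattern is an A followed by C, with A or G before them, any base but C before that, and any base but G after. It stood in 54.4% of windows on the transcribed strand and 80.4% on both strands, so its presence in a single window is common. Cxcl1 held 3 DRACH matches in its first 50 bases, at positions 5, 19 and 38, and Cxcl2 held 1, at position 18. Cxcl1, Cxcl2 and Cxcl3 are related copies, and reads from so alike a stretch could be split between them by the counting, so their single values are uncertain.

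The chemokine promoters were alike as well. The 100 bases before each start are printed with the match to the NF-κB consensus in capitals. The match on 1 strand overlaps that on the other by all but the outermost base on each side.
Cxcl1, chr5:90891145-90891244: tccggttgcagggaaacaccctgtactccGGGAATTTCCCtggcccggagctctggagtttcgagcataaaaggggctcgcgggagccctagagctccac
Cxcl2, chr5:90903799-90903898: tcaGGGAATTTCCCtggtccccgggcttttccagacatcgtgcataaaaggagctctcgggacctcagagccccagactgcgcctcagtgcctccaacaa
Cxcl3, chr5:90786001-90786100: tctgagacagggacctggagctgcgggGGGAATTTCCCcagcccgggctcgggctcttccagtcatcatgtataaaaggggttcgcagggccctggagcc

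The letters GGGAATTTCC, searched on both strands, began 71 bases before the start of Cxcl1, 97 before that of Cxcl2 and 73 before that of Cxcl3. They stood in 29 of 32851 promoter windows of 300 bases (0.0883%). These letters are the ones that the printed promoters share, so their rarity elsewhere describes the string and is no test. Any match to the NF-κB consensus stood in 8.46% of windows. Of the 9 genes with a promoter window in the table, 3 held a consensus match, Il1r1 at a second start beside Cxcl1 and Cxcl2. A match is a description of letters and does not show that a factor binds there.

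The ligand Il1a and its antagonist Il1rn each had a match to the AP-1 pattern TGANTCA, which reads the same on both strands and stood in 7.81% of windows. The surrounding 40 bases are printed with the match in capitals.
Il1a, chr2:129309973-129310012, minus strand: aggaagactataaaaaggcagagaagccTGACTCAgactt
Il1rn, chr2:24336700-24336739, plus strand: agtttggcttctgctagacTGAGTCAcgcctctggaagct

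The match in Il1a lay 12 bases before its annotated start (129309972). That start lies inside the RefSeq gene span, whose 5′ end on the minus strand is at 129310186, so the match lies inside the span as well. The match in Il1rn lay 141 bases before the first of its 3 annotated starts. The RNA of Il1a and that of Il1rn went in opposite directions, as described next.

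The expression comparison asked which of these transcripts change when keratinocytes differentiate. Per the authors' deposited table, the RNA of 4 of the 10 genes was higher at day 4, namely Il33, Il1b, Cxcl2 and Il1a, and that of 3 lower, namely Il1rn, Il18 and Il36g. The table was made with DESeq2, per the submitters' processing notes, and lists only genes at an adjusted p under 0.05. Of all genes tested, 53.5% were listed, 27.1% as higher and 26.4% as lower, so 7 listed of 10 is to be read against that share. The median log2 fold change was 1.09 over the 7 listed genes and 0.26 over all 7978 listed genes. The value of 1.09 is that of Il1a, the smallest of the 4 rises, and Il1b counts among these at a mean count of 2.1. Where the mean count had to reach 100, 3 of the family were higher and 3 lower. The median therefore does not show a shift of the family as a whole. Cxcl1, Il1r1 and, going by symbol, Il36a were not listed, which means that they were either not called or not tested. The line read as Il36g carries the Ensembl identifier of Il36a, as described below, so its value could be that of Il36a.

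**Figure D1:**
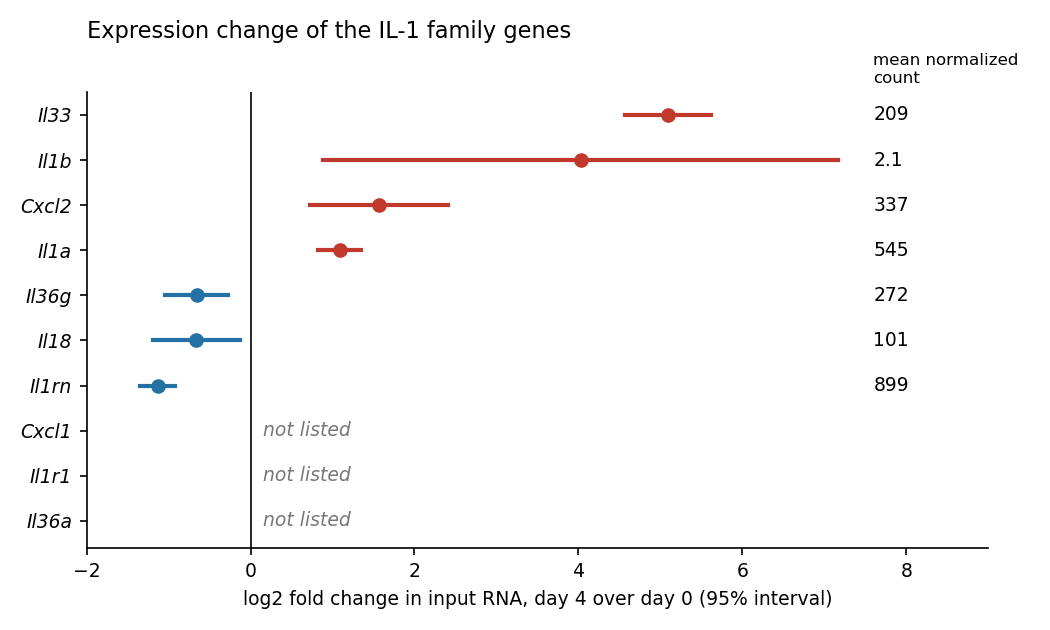
Log2 fold change in input RNA at day 4 over day 0 (horizontal axis) for each of the 10 genes (rows), with 95% intervals from the authors' standard error and the mean normalized count at the right. Il33 stands at 5.09 with a narrow interval, Il1b at 4.03 with an interval that runs from 0.89 to 7.17, and the 3 genes below 0 lie between -0.66 and -1.13. Il36g and Il36a are told apart by symbol only.

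Il33, the alarmin stored in the nucleus, had the largest change of the 10 genes. The authors' deposited table puts it 34.2-fold higher at day 4, with a 95% interval of 23.8 to 49.0 (DESeq2 adjusted p = 1.3e-79). If the mean normalized count of 209 is an average over 3 input libraries of each day, the fold change corresponds to about 11.9 at day 0 and 407 at day 4. By absolute log2 fold change Il33 stood at place 136 of 7978 in the authors' deposited table. 

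Il1a, the other ligand that keratinocytes hold ready in the cell, was, in the authors' deposited table, 2.13-fold higher at day 4 (95% interval 1.77 to 2.55, DESeq2 adjusted p = 3.1e-15). Its mean normalized count of 545 corresponds, under the same assumption, to 349 at day 0 and 742 at day 4. Il1rn, which encodes the antagonist of the receptor that IL-1α binds, was 2.19-fold lower (95% interval 1.89 to 2.55, DESeq2 adjusted p = 1.6e-23) in the authors' deposited table. Its mean of 899 corresponds to 1234 at day 0 and 563 at day 4. The change of Il1a exceeded that of Il1rn by 2.22 on the log2 scale, with a 95% interval of 1.88 to 2.56 if the errors are independent, which the files do not show. The ratio of ligand to antagonist RNA thus differed between the days by more than the error of both changes.

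Il1b, whose product needs cutting by an inflammasome protease, was listed as higher, but its mean normalized count was 2.1. Its log2 fold change of 4.03 had an SE of 1.60 in the authors' deposited table, and a 95% interval for the fold of 1.85 to 144 (DESeq2 adjusted p = 0.0242). The size of this rise is therefore hardly constrained, and the implied level was 0.242 at day 0 and 3.95 at day 4. Il1b starts on chromosome 2 in the same stretch as Il1a (129364569 to 129371164 against 129299609 to 129310186, mm10), and both genes lie on the minus strand.

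Il18, the other ligand that is cut from a precursor, was 1.58-fold lower at day 4 in the authors' deposited table (95% interval 1.09 to 2.28, DESeq2 adjusted p = 0.0289). Its mean normalized count was 101. Both Il18 and Il1b would be lost at an adjusted p under 0.01.

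Il36g, an IL-36 agonist made by keratinocytes, was 1.58-fold lower as well (95% interval 1.21 to 2.05, DESeq2 adjusted p = 0.0020, mean normalized count 272), as the authors' deposited table has it. The line for this gene needs care. Its symbol is Il1f9 and its peaks lie in the RefSeq span of Il1f9, on chromosome 2 from 24186476 to 24193567. The Ensembl identifier and gene name printed on the same line are those of Il1f6, which is Il36a and lies from 24215417 to 24225701, and RefSeq gives Il1f9 both as the symbol of Il36g and as a synonym of Il1f6. The expression value is attributed to Il36g here by its symbol.

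Cxcl2, a chemokine that draws neutrophils, was, in the authors' deposited table, 2.96-fold higher at day 4. Its 95% interval was 1.65 to 5.32 and its DESeq2 adjusted p was 7.6e-04. The SE of 0.43 on the log2 scale was large for a mean normalized count of 337, since the median SE was 0.13 among listed genes with a mean of at least 100. Cxcl1, its close relative, was not listed, and Il1r1, the signalling receptor of IL-1, was not listed either. Both had m6A peaks on both days, and 37.6% of the 6332 genes with peaks on both days were likewise not in the expression table.

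The m6A peak lists asked where the mark lay on each day. Peaks were listed for 5 of the 10 genes at day 0 (Il1a, Il1rn, Il36g, Cxcl1 and Il1r1) and for 7 at day 4, when Il33 and Cxcl2 joined them. Of all genes with a day 4 peak, 8.83% had none at day 0. Among the 7 genes in the expression table, 3 had a day 0 peak and 5 a day 4 peak, against 59.5% and 55.8% of all genes in that table. There were 8 peaks at day 0 and 9 at day 4, and 6 of the 8 day 0 peaks overlapped a day 4 peak on the same strand by at least 1 bp. The share of all day 0 peaks with such an overlap is not given here, so this count shows nothing particular to these genes. Il1b, Il18 and Il36a had no listed peak. The enrichment score and p of each peak are the authors' own, with unstated scaling, and scores are compared only within a list.

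**Figure D2:**
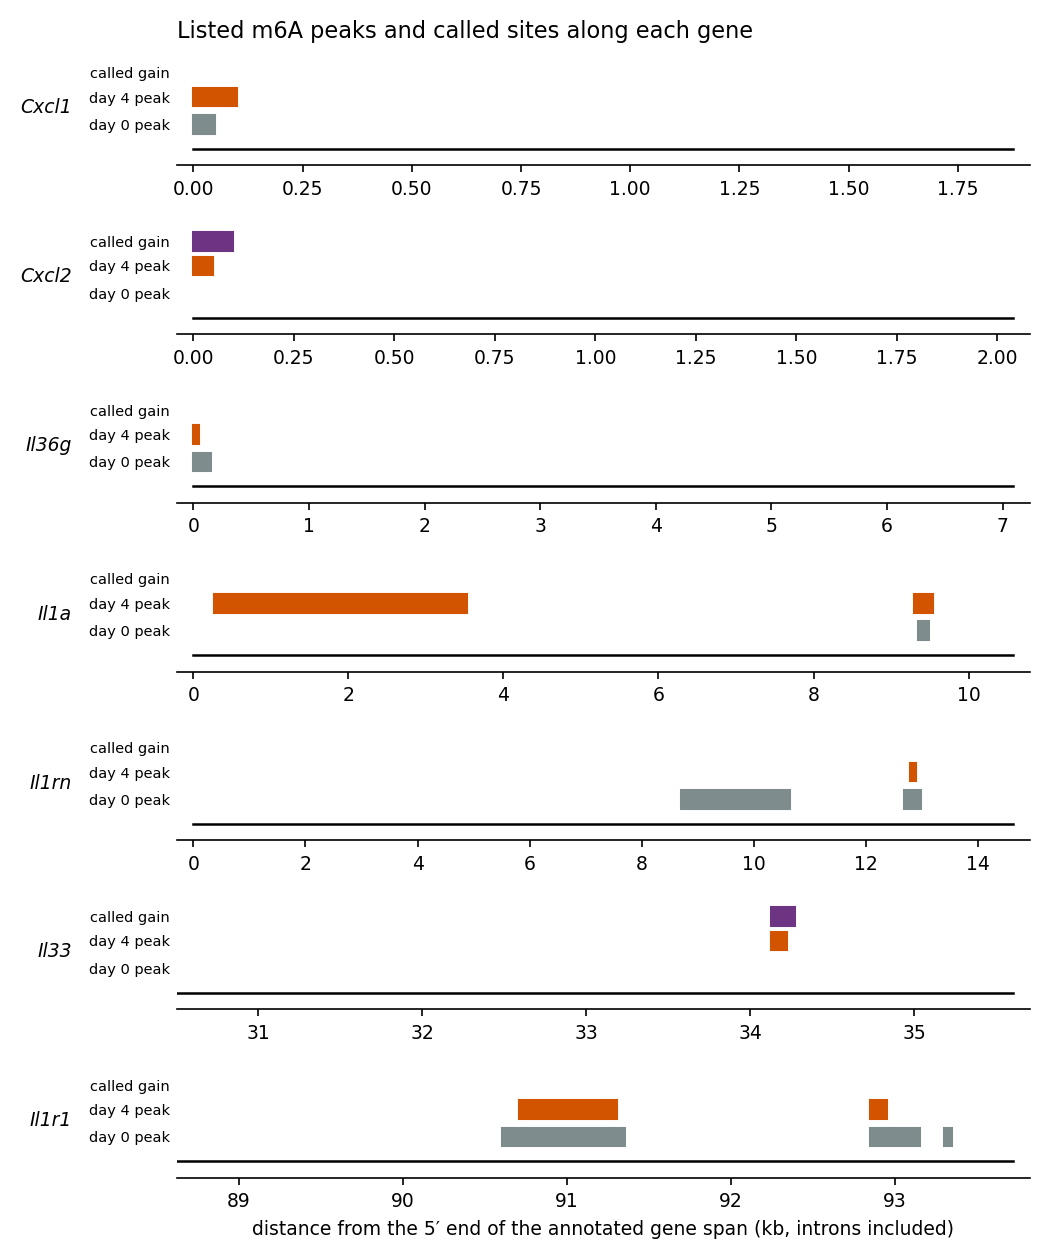
Listed day 0 peaks, day 4 peaks and sites called as gaining methylation for the 7 genes with a peak, drawn to scale against the distance in kb from the 5′ end of the annotated gene span, introns included (grey day 0, orange day 4, purple gains). For Il33 and Il1r1 the last 5 kb are drawn. The peaks of Cxcl1, Cxcl2 and Il36g begin at 0, while those of Il33 and Il1r1 lie near the 3′ end.

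In Cxcl1, Cxcl2 and Il36g the upstream edge of every listed peak was the annotated start itself. The Cxcl1 peak ran from 90891245 to 90891294 of chromosome 5 at day 0 (score 22.7, unadjusted p = 2.5e-12) and to 90891344 at day 4 (score 9.61, unadjusted p = 2.7e-13). Cxcl2 had its only peak at day 4, from 90903899 to 90903948 (score 17.9, unadjusted p = 6.2e-27). The Il36g peak spanned 150 bp from 24186476 at day 0 (score 32.3) and 50 bp at day 4 (score 57.8). Across the lists, 1.3% of day 0 peaks and 1.8% of day 4 peaks began at an annotated start, in 3.47% and 4.75% of the genes with a peak and an annotated start. The printed AGACT stretches lie inside these peaks. Antibodies against m6A are known to bind also the methylated adenosine next to the mRNA cap, and for peaks at a transcript's first base the 2 marks cannot be told apart here.

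Il1r1 carried the highest-scoring peaks of the 10 genes. The peak from 40313087 to 40313834 of chromosome 1 at day 0 had a score of 481, higher than 98.6% of day 0 peaks. At day 4 it was listed from 40313187 to 40313784 with a score of 250, higher than 97.5% of day 4 peaks. A second peak began at 40315330 on both days, and another, from 40315779 to 40315828, was listed at day 0 only (unadjusted p = 8.8e-05). The outermost of the 3 began 90607 bp into a gene that spans 93722 bp, so all lay near its 3′ end, and no site in Il1r1 was called as changed in methylation. This position is common: the 3′ end was no more than 3500 bp away for 57.6% of all day 0 peaks and 58.9% of all day 4 peaks.

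Il1a and Il1rn each kept 1 peak near the 3′ end and had a second on a single day. In Il1a the shared peak was listed from 129300695 to 129300843 at day 0 (score 46.2) and from 129300646 to 129300892 at day 4 (score 29.3), and its edge lay 1086 bp and 1037 bp from the 3′ end. The second Il1a peak, at day 4, ran from 129306651 to 129309923 (score 6.17, unadjusted p = 2.6e-09). Its upstream edge lay 49 bases after the annotated start and 263 after the 5′ end of the gene span, and its ends may span introns. In Il1rn the shared peak spanned 300 bp at day 0 (24349548 to 24349847, score 33.4) and 100 bp at day 4 (24349648 to 24349747, score 43.0). Its second peak, at day 0, ran from 24345559 to 24347502 (score 8.04, unadjusted p = 2.5e-07). The single-day peaks scored low in their lists, above 17.6% of day 4 peaks for Il1a and above 22.0% of day 0 peaks for Il1rn. Neither gene had a called change in methylation, and the gene with the extra day 4 peak was the one whose RNA rose. The part of transcript level in these single-day peaks was not tested.

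The methylation comparison asked which sites gain or lose m6A. Of all sites tested, 6.96% were called, 4.79% as gains and 2.17% as losses, and 2 of the 10 genes had a called site, both gains. At the gene level, 25.2% of genes with a peak on either day had a called site and 17.2% a called gain. In Il33 the site from 29959242 to 29959389 of chromosome 19 had a log fold change of 4.14, whose base is not stated and a false discovery rate of 0.0307, per the authors' deposited table. It overlapped the day 4 peak of Il33, from 29959242 to 29959340 (score 33.2, unadjusted p = 5.4e-15), 1378 bp before the 3′ end. In Cxcl2 the site from 90903899 to 90903997 had a log fold change of 2.84 and, per the authors' deposited table, a false discovery rate of 7.4e-06, and it contains the day 4 peak at the start.

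Both gains stood in genes whose RNA rose and which had no listed peak at day 0. Among all genes with a peak at day 4 and none at day 0, 76% were listed as higher in expression and 19.4% had a called gain. The direction of both comparisons was itself read from genes or sites with peaks at day 4 only or day 0 only. That such genes were higher and such sites gains is therefore no independent result. Listed peaks were rarer among genes of low level. None of the 463 listed genes with an implied day 0 mean of 5 to 25, the range that holds Il33 (11.9), had a day 0 peak. In the range of 100 to 300, which holds Cxcl2 with an implied day 0 mean of 170, 43.8% of 1336 genes had one. At day 4, 69.6% of the genes with an implied mean of 300 to 1000, the range of Il33 and Cxcl2, had a peak. The part that transcript level plays in the gains of Il33 and Cxcl2 was not tested. For Il18, with an implied mean of 124 at day 0 and 78.6 at day 4, the shares of genes with a peak were 43.8% in the range of 100 to 300 and 5.65% in that of 25 to 100.

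The other genes of the pathway were taken from 7 lists with 82 genes in all, and the authors' deposited table has 29 of them as higher and 11 as lower, without the other 42. This listed share was 48.8%, beside 53.5% of all tested genes. The 82 may include genes that were not tested, so the 2 shares have different denominators. Over all listed genes, 4040 were higher and 3938 lower. The median log2 fold change of the 40 listed pathway genes was 0.47, beside 0.26 over all listed genes. Of these 40, 14 were higher and 5 lower with a change of at least 2-fold.

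**Figure D3:**
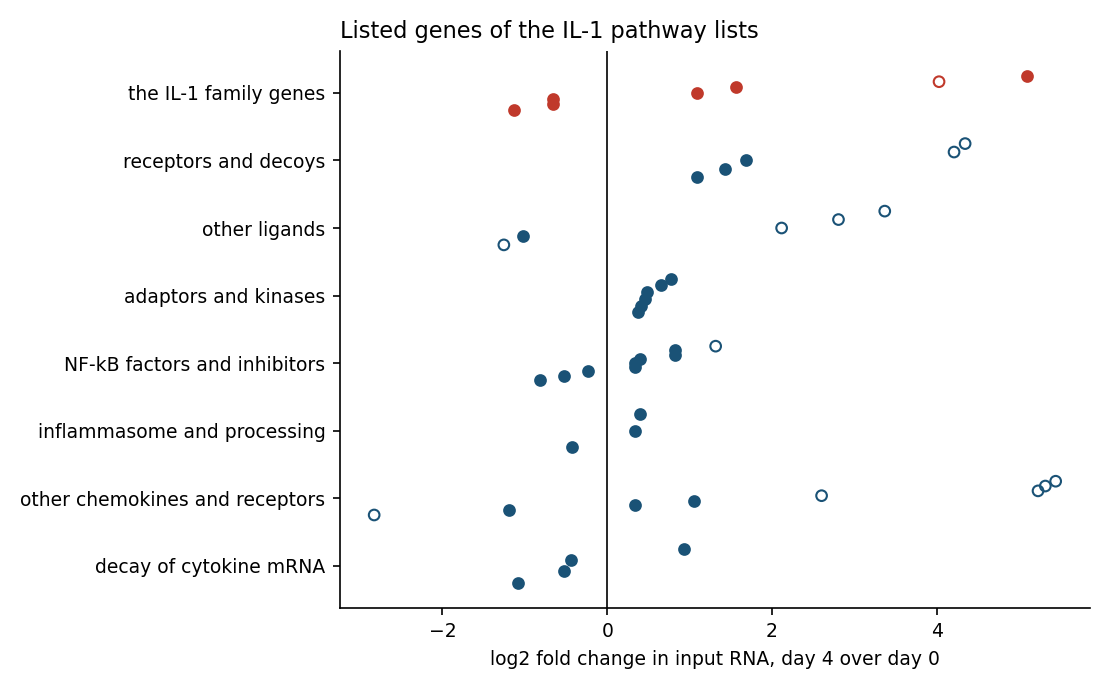
Log2 fold change in input RNA at day 4 over day 0 (horizontal axis) for each listed gene of the 10 IL-1 family genes (top row) and of the 7 pathway lists. Filled points have a mean normalized count of at least 100 and open points a lower one. All 5 listed receptors and decoys and all 6 listed adaptors and kinases lie above 0.

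Of 8 receptors and decoys, 5 were higher, none lower and 3 not listed (Il1r2, Il1rl2 and Il18bp), with a median log2 fold change of 1.68 over the 5. Il18rap, the accessory chain of the IL-18 receptor, was 20.3-fold higher (95% interval 12.6 to 32.6, mean normalized count 73.5) and its partner Il18r1 3.20-fold (2.65 to 3.87, mean 397) in the authors' deposited table. The ligand Il18 fell, and the change of Il18r1 exceeded that of Il18 by 2.34 on the log2 scale (95% interval 1.74 to 2.94 if the errors are independent). Il1rl1, the receptor of IL-33, was listed with a log2 fold change of 4.21 (SE 0.94) in the authors' deposited table, at a mean of 8.94. The difference between the changes of Il33 and Il1rl1 was 0.89 with a 95% interval of -1.02 to 2.79, which covers 0 and is too wide to show that they changed alike. Il1rap, the accessory chain shared by the receptors of IL-1, IL-33 and IL-36, was 2.69-fold higher in the authors' deposited table (2.35 to 3.08, mean 878). It had no peak on either day, as did 13.3% of the 2855 listed genes with a mean of 500 to 2000. Il18r1 had 4 peaks and Il18rap 2, all listed at day 4 only, with downstream edges 797 to 2596 bp from the 3′ end, and none of them overlapped a called site. The implied day 0 mean was 6.9 for Il18rap, in the range of 5 to 25 where none of 463 genes had a day 0 peak. For Il18r1 it was 189, in the range of 100 to 300 where 43.8% had one. The part of transcript level in these day 4 peaks was not tested.

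Among 9 other ligands, 3 were higher, 2 lower and 4 not listed. Tslp (log2 fold change 3.37, SE 1.24), the calcium-binding alarmin S100a9 (2.81, SE 0.69) and Tnf (2.12, SE 0.46) were higher in the authors' deposited table, with means of 3.86, 15.1 and 33.5. Lower were Il36rn, the antagonist of the IL-36 receptor, at -1.25 (SE 0.35, mean 46.1, listed as Il1f5), and the nuclear alarmin Hmgb1 at -1.02 (SE 0.16, mean 235) in the authors' deposited table.

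Of 13 adaptors and kinases, 6 were higher by small amounts and 7 were not listed. The largest were Tollip (0.78, SE 0.09), an adaptor that restrains IL-1 receptor signals, Myd88 (0.65, SE 0.12), Irak4 (0.48, SE 0.15) and Map3k7 (0.46, SE 0.11), on the log2 scale in the authors' deposited table. The inflammasome and processing list had 2 of 14 higher (Casp8 at 0.40 and Capns1 at 0.33), 1 lower (the protease Capn2 at -0.43) and 11 not listed in the authors' deposited table, among them Casp1, Pycard and Nlrp3. Calpains are known to cut the IL-1α precursor.

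The authors' deposited table lists 6 of 13 NF-κB factors and inhibitors as higher and 3 as lower, and 4 are not in it. The largest changes on the log2 scale in the authors' deposited table were as follows. The subunits Relb (0.82, SE 0.15) and Nfkb2 (0.82, SE 0.10) and the inhibitor Nfkbie (1.32, SE 0.35, mean normalized count 32.0) were higher. Nfkbiz, which is in this list by its gene name, was lower (-0.81, SE 0.11). Nfkbia, the inhibitor that holds NF-κB in the cytoplasm, was lower as well (-0.52, SE 0.11) in the authors' deposited table.

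Of 17 other chemokines and receptors, 6 were higher, 2 lower and 9 not listed. Cxcl3, whose start sequence is printed above, was 2.07-fold higher in the authors' deposited table (95% interval 1.57 to 2.72, mean 843). Cxcl5, which lies beside it on chromosome 5 and acts on the same receptor, was 2.28-fold lower (1.82 to 2.87, mean 832) in the authors' deposited table. That receptor, Cxcr2, was lower too (log2 fold change -2.83, SE 0.59, mean 20.1) in the authors' deposited table. The 4 largest rises of the list stood at low means: Ccl5 (5.44, SE 1.60, mean 2.65), Cxcl10 (5.32, SE 1.62, mean 2.43), Cx3cl1 (5.23, SE 0.82, mean 17.7) and Ccl20 (2.60, SE 0.48, mean 32.2) in the authors' deposited table. The difference between Cxcl2 and Cxcl3 in log2 fold change was 0.52 with a 95% interval of -0.42 to 1.45, which covers 0.

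Among 8 genes that control the decay of cytokine mRNA, 1 was higher, 3 lower and 4 not listed. Zfp36l2 (-1.08, SE 0.10) and Zfp36l1 (0.93, SE 0.14), relatives of Zfp36 that bind AU-rich elements, went apart on the log2 scale in the authors' deposited table. The nuclease gene Zc3h12a (-0.52, SE 0.19) and Elavl1 (-0.43, SE 0.13), whose product stabilises such mRNAs, were lower in the authors' deposited table.

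Called methylation sites stood in 12 of the 82 pathway genes (14.6%), 12 gains and 3 losses. Among genes with a called change in RNA, whatever their function, 17.8% had a called site, and 68.8% of all called sites were gains. The 82 genes also include ones with no listed RNA change, so the shares have different denominators. Cxcl3 had a gain of 1.56 over a site that begins at its start (90786101 to 90787512, false discovery rate 2.8e-04) and Cxcl5 a gain of 1.78 at a site that begins 49 bases after the 5′ end of its gene span (0.0156), both per the authors' deposited table. The Cxcl3 site spans 1412 bp of genome, so its gain cannot be placed at the start. Cxcl2, Cxcl3 and Cxcl5 thus had called gains while their RNA went both ways, and Cxcl1 had no called site. Nfkbia (2.74, false discovery rate 0.0040) and Nfkb2 (2.22, 1.3e-04) had gains at sites that begin 99 and 66 bases after an annotated start, in the authors' deposited table. These sites span 817 and 557 bp of genome, so their gains cannot be placed at the start either. The site in Nfkbia overlapped no listed peak. Zfp36l2 had gains at 2 sites (2.92 and 1.65), Zfp36 at 2 (1.23 and 0.77), Zfp36l1 at 1 (1.51, false discovery rate 0.0395) and Capns1 at 1 (1.30), in the authors' deposited table. The sites in Zfp36l2 and Zfp36l1 overlapped no listed peak either. Losses stood in Tab3 (-1.43), Tollip (-1.30) and Irak1 (-1.29), and infinite gains at a second Tollip site and in Traf6, in the authors' deposited table. The Traf6 site overlapped no listed peak. Of all called gains in genes of the expression table, 55.0% stood in genes with higher RNA.

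**Figure D4:**
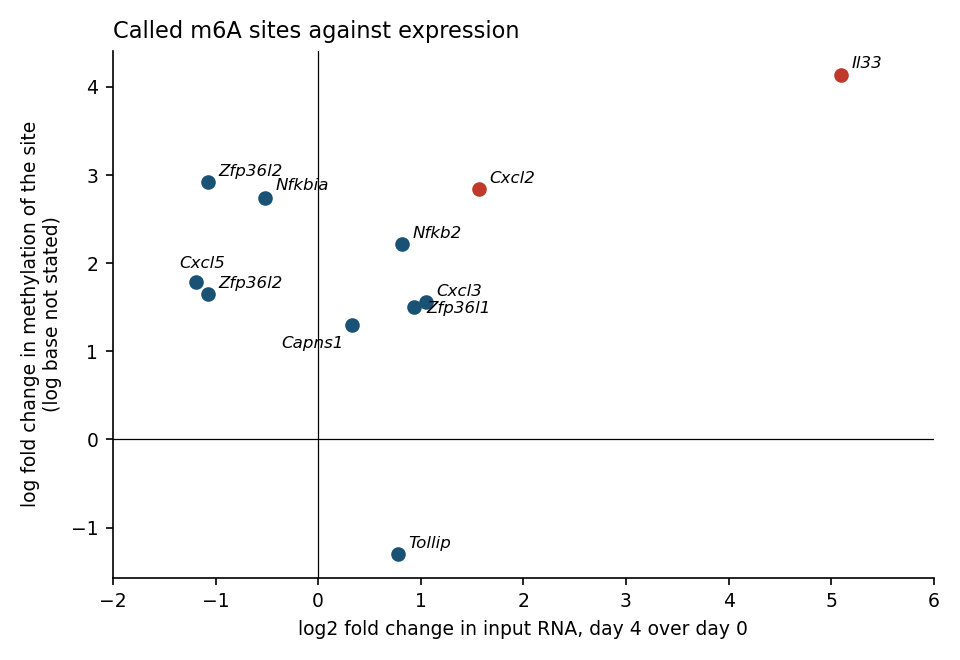
Log fold change in methylation (vertical axis, log base not stated) against log2 fold change in input RNA (horizontal axis) for the 11 called sites with a finite value in pathway genes that the expression table lists, with Il33 and Cxcl2 in red and other pathway genes in blue. Il33 and Cxcl2 lie at the upper right, while Cxcl5, Nfkbia and both Zfp36l2 sites combine a gain with lower RNA.

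Cell type markers were read beside these results. All 8 keratinocyte markers were listed, 5 as higher and 3 as lower, and the authors' deposited table gives Krt5 a mean of 196003 and Krt14 one of 209477. Their largest changes on the log2 scale were those of the suprabasal genes Krt1 (5.10, mean 2.65), Ivl (3.67) and Krt10 (1.47) in the authors' deposited table. The basal keratins Krt5 (0.96) and Krt14 (1.06) rose too, while Trp63 (-0.92), Itgb4 (-0.67) and Dsg3 (-0.29) fell, per the authors' deposited table. Fibroblast and feeder markers numbered 13. Among them 3 were higher, 1 was lower and 9 were not listed, and the mean counts of the listed ones summed to 508. The 9 have no level here, so this sum does not measure the amount of fibroblast or feeder RNA. Col5a1 (log2 fold change 4.58, mean 65.8), Postn (3.66, mean 305) and Pdgfra (1.73, mean 50.9) rose and Col6a1 (-2.07, mean 86.4) fell in the authors' deposited table. Col1a1, Col1a2, Col3a1, Dcn, Lum and Vim were among those not listed. Fibroblasts can express Il33, and the part of feeder or fibroblast RNA in its rise was not tested. Of 10 immune markers, 3 were higher, Itgam (6.79, mean 11.7), Csf1r (4.62, mean 20.9) and H2-Ab1 (2.88, mean 8.94), and Cd68 (-1.92, mean 159) was lower in the authors' deposited table, while Ptprc, Adgre1, Lyz2 and Cd3e were not listed. Il1b, Ccl5 and Cxcl10 rose at means of 2.1, 2.65 and 2.43 in the authors' deposited table, below those of all 4 listed immune markers, and the part of immune cells in these rises was not tested. Endothelial markers had 2 of 4 higher, with Pecam1 at 2.32 (mean 5.30) and Kdr at 0.38 (mean 1175), and melanocyte markers 2 of 6, with Kit at 6.14 (mean 4.74) and Mitf at 1.65 (mean 128), in the authors' deposited table.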

How the data were processed

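Input and anti-m6A libraries of keratinocyte RNA (3 per day and kind) were grouped by title. HISAT2 2.1.0, DESeq2 1.18.1 and the build mm10 are named in the submitters' processing notes. The peak caller, the methylation test and the joining of replicates are named in none of the sources used here. The deposited peak lists give, per the file headers, an enrichment score and an unadjusted p-value per peak. The deposited expression table gives a mean normalized count, a signal averaged by the authors over libraries, and a log2 fold change with its SE and adjusted p-value. The deposited methylation table gives a log fold change, used here as a score, and a false discovery rate. Both tables stop at 0.05.

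The members and gene lists were chosen with earlier results of these data known. Named were all 10 genes; per pathway list up to 4 listed genes of largest change and 2 of the opposite direction; per marker list up to 3; and all pathway genes with a called site. A few others were named after their values were seen. Direction was read as day 4 over day 0, because 93.8% of the listed genes with peaks at day 4 only had positive fold changes against 4.02% of those with peaks at day 0 only. For methylation the reading was less clear on 1 side: 98.8% of the 419 sites overlapping only day 4 peaks were positive, and 24.4% of the 119 overlapping only day 0 peaks. How many genes or sites were tested follows from each adjusted p, its rank and its p, a step tested on simulated data. Intervals (95%) are normal on the log2 scale. Levels per day were computed from the mean and the fold change. The 4 differences between genes were chosen after the values were seen and have no p. Overlaps needed 1 bp on the same strand. Promoter windows cover 250 bases before and 50 after a RefSeq start. Python 3.11.15, pandas 2.3.3, scipy 1.17.1 and matplotlib 3.10.9 were used.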

Additional observations from a re-analysis of the deposited data

How the results depend on the processing

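The count of 7 listed IL-1 family genes was 5 at an adjusted p under 0.01 and 5 with a change of at least 2-fold. Requiring a mean normalized count of 100 left 6, and exact symbols only, an alternative chosen after the data were seen, left 6 as well. The 40 listed pathway genes became 19 with a change of at least 2-fold. The 6 day 0 peaks that overlapped a day 4 peak became 3 where the overlap had to cover at least 50% of both peaks, since several peaks are of unequal span on the 2 days. At a false discovery rate under 0.01, 1 of the 2 called sites remained, in Cxcl2. Counts of genes with peaks were 5 and 7 also at an unadjusted peak p under 1e-5. No paired analysis was possible because the files carry no value per library, and for the same reason no replicate could be left out. Depth per library is unknown.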
